A study of Tetranychus urticae with 8 samples.

Results

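Tetranychus urticae, the two-spotted spider mite, is a plant-feeding arachnid. Adults of the strain London, kept on detached bean leaves, were compared between the sexes by RNA sequencing. The IDs described here are those whose transcripts were abundant in males, at least 16 times higher in males than in females, and did not vary widely between the male libraries. They were 73 of the 17654 gene IDs in the table. Each had a male mean of 200 or more CPM (reads of the ID divided by the reads on all IDs of the library, on the scale of 1000000 reads), a male mean at least 16 times the female mean, and a highest male library below 3 times the lowest. The male level, the ratio between the sexes and the spread between male libraries therefore chose these IDs. They are given below as descriptions, without a test.

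There were 4 libraries of males and 4 of females, all from whole bodies of intact adults of the same strain. Each male library came from a pool of about 800 animals aged 1 to 2 days, and each female library from about 200 animals aged 3 days. Sex cannot be told apart from age or from pool size, since these differed throughout. The libraries held between 12082575 and 21414612 reads on genes, so that 3 reads amount to 0.140 to 0.248 CPM in a single library. Such limits and the counting errors below cover counting error only. The labels call the libraries biological replicates without saying whether the pools came from separate cultures, so any spread or p-value refers to these pools.

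Spider mites are haplodiploid: males develop from unfertilised eggs and carry a single set of chromosomes, and females develop from fertilised eggs. Males are much smaller than females, mature early and guard and mate with females as these emerge. In arthropods, transcripts that are far more abundant in males are often made in the testis and in the glands that produce seminal fluid. The table does not pair its IDs with gene names, and 0 of the 17654 were found in the RefSeq gene table for this mite. No ID is therefore given a name, a role, a position or a sequence, and no marker of testis or of any other tissue was looked up. In whole bodies, fewer cells of a type and less RNA per cell cannot be told apart. Counts were not divided by gene length, so levels of different IDs are compared as shares of the reads.

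All 73 IDs passed the filter on low counts, and all 73 were called higher in males (edgeR quasi-likelihood test, adjusted p under 0.05 with a fitted difference of 2-fold or more). The same call was made for 30.5% of the 12885 tested IDs. Every male library lay above every female library in 73 of the 73, against 44.0% of all tested IDs. The rule used this contrast, so nothing is read from either count. The median log2 ratio of the male to the female mean was 4.85, with a range from 4.00 to 11.16. The median fitted log2 fold change (male minus female) was 4.88 for the 73 IDs and 0.05 for all tested IDs.

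The 73 IDs together took a substantial part of the male RNA. They held 9.56%, 9.49%, 9.58% and 9.27% of the reads in male replicates 1 to 4, a mean of 9.48% ± 0.14 (SD, n = 4). In female replicates 1 to 4 they held 0.208%, 0.215%, 0.246% and 0.217%, a mean of 0.222% ± 0.017 (SD, n = 4). Most of the male share lay in few IDs. The highest alone made up 19.2% of the summed male level, the highest 4 made up 44.6% and the highest 10 made up 61.8%. By male mean, 20 IDs were at 1000 CPM or more, 16 between 500 and 1000 CPM, and 37 below 500 CPM. Of the 873 IDs at 200 CPM or more in males, the 73 were 8.36%, and they included 4 of the 10 and 18 of the 100 most abundant IDs of males.

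**Figure D1:**
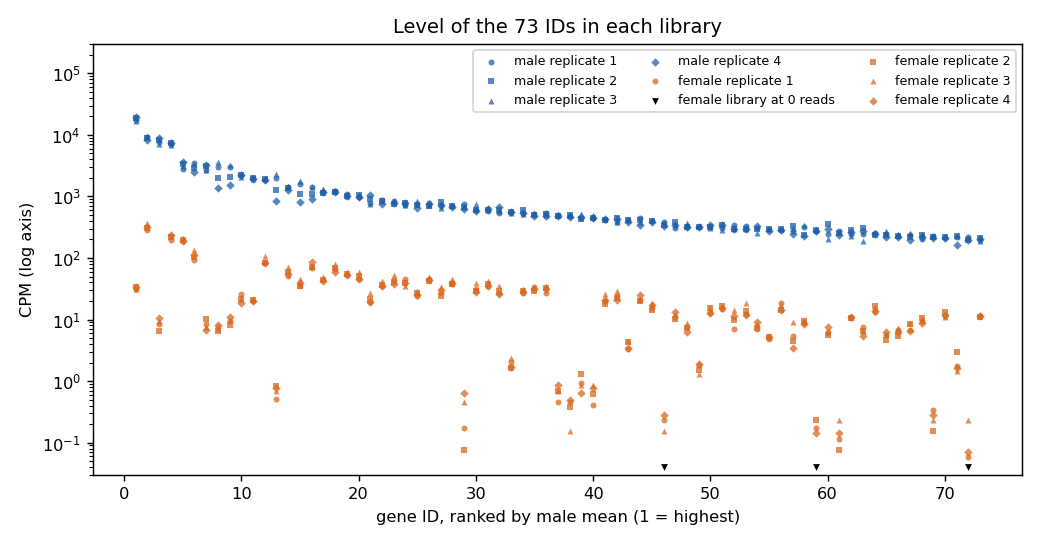
CPM (log axis) of each of the 73 IDs in each of the 8 libraries, with IDs ranked by male mean on the horizontal axis. Blue points are male libraries and orange points female libraries, and black triangles mark a female library at 0 reads (3 IDs). The male means fall from 18154 to 201 CPM along the ranking by construction, whereas the female means scatter between 0.0901 and 321 CPM.

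The most abundant of the 73, tetur02g04350, was the second most abundant ID of males. It stood at 17270.4, 18997, 16581 and 19768 CPM in male replicates 1 to 4 and at 31.1, 33.2, 31.8 and 33.9 CPM in female replicates 1 to 4. The libraries of the sexes were thus far apart, with means of 18154 ± 1480 and 32.5 ± 1.3 CPM (SD, n = 4 each), and the ID alone took 1.82% of the male reads. The next, tetur03g09480, had 9194.5, 9053, 9498 and 8303 CPM in males. In females it had 289.7, 306, 367 and 322 CPM, the highest female mean among the 73, so that it ranked 442 among all IDs of females while standing 28.1 times higher in males.

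The third, tetur11g02250, had 7712, 8211, 7078 and 8741 CPM in males but only 8.43, 6.54, 9.29 and 10.8 CPM in females. Its male mean (7936 ± 710 CPM) was close to that of tetur03g09480 (9012 ± 508 CPM), whereas its female mean was 8.75 ± 1.76 CPM against 321 ± 33 CPM. At like male levels the female levels of these IDs thus differed widely. The ID tetur07g05480, at 7102.5, 7366, 6763 and 7476 CPM in males, resembled tetur03g09480 in this, with 196, 221, 226 and 234 CPM in females. These 4 IDs ranked 2, 4, 5 and 8 among the transcripts of males.

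A further 6 IDs completed the 10 most abundant, with male means from 2189 to 3201 CPM. Of these, tetur06g06933 lay close to the limit on the ratio, at 3201 ± 363 CPM in males and 197 ± 10 CPM in females, a ratio of 16.3. The ID tetur07g01280 was 27.7 times higher in males (3069 ± 440 against 111 ± 18 CPM). The other 4 had little in females: tetur38g00723 stood at 8.29 ± 1.53 CPM, tetur04g01580 at 7.31 ± 0.71, tetur04g01610 at 9.59 ± 1.22 and tetur20g01230 at 21.9 ± 3.0 (SD, n = 4).

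Among themselves the 73 IDs spread over more than 2 orders of magnitude in the ratio between the sexes, and most lay near its lower end. The ratio of male to female mean was 16 to 20 in 19 IDs, 20 to 32 in 21 and 32 to 64 in 11. It was 64 to 128 in 4 IDs, 128 to 256 in 2, 256 to 512 in 4, 512 to 1024 in 5, and higher in 7. The widest step in the ordered ratios, 0.87 on the log2 scale, lay between tetur31g00690 at 107 and tetur08g03340 at 196. The next, 0.74, lay between tetur19g01780 at 57.4 and tetur09g00380 at 95.7. A split at 64, chosen after these values were seen and so not tested, gives 51 IDs below and 22 above.

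Both classes had similar median male levels but very different female ones. The median male mean was 509 CPM below 64 times and 484 CPM above, whereas the median female mean was 24.0 CPM (range 5.09 to 321) and 1.29 CPM (range 0.0901 to 32.5). The 51 IDs held 4.97% of the male reads and 0.209% of the female reads. The 22 IDs held 4.51% of the male reads and 0.0123% of the female reads. The difference in female level follows from the split itself, since it was made on the ratio and the median male levels were alike.

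**Figure D2:**
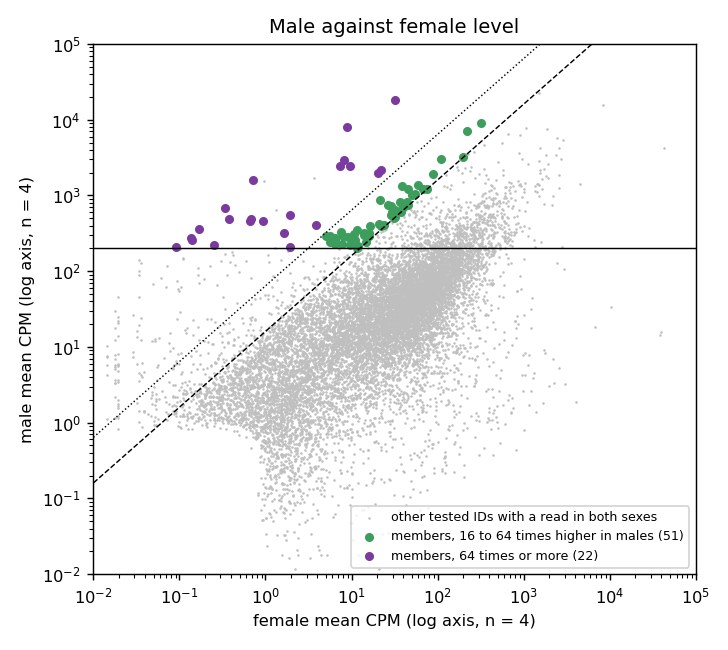
Male against female mean CPM of the tested IDs with a read in both sexes (both axes logarithmic, n = 4 libraries per sex). Green and purple points are the 73 IDs, grey points the other tested IDs, the solid line marks 200 CPM in males, and the dashed and dotted lines mark ratios of 16 and 64. The 51 green points lie between the dashed and dotted lines, 19 of them at ratios of 16 to 20. The 22 purple points reach down to a female mean of 0.0901 CPM.

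Many of the 73 transcripts were not rare in females. The female mean was 10 CPM or more for 43 IDs, and 27 IDs exceeded the median female level of all tested IDs, which was 22.1 CPM. At the other end, 11 IDs had a female mean under 1 CPM. Of the 73, 0 had as few as 3 reads in the 4 female libraries together, and 3 IDs had 0 reads in a female library. The highest ratio belonged to tetur22g01620, with 216, 199, 210 and 198 CPM in males and 5 reads in the 4 female libraries together. With reads pooled by sex its ratio was 2354, with a 95% exact counting interval of 1008 to 7251. The ID tetur32g01860 had 384, 345, 389 and 330.2 CPM in males and 10 female reads in all, a pooled ratio of 2062 (1121 to 4301).

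Far more reads lay behind tetur09g06230, at 1592 ± 656 CPM in males and 9 to 11 reads in each female library. Its pooled ratio was 2179 (1600 to 3050.4). The 3 intervals overlap, so these IDs are not ranked against each other. At the low end, tetur30g02200 stood at a ratio of 16.04, tetur09g03350 at 16.1 and tetur06g02440 at 16.2, with female means of 75.2 ± 7.4, 31.8 ± 2.3 and 37.8 ± 3.8 CPM (SD, n = 4).

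The limits of the rule on level and ratio did not fall in gaps of the data. Just inside the limit on level was tetur20g00470, at a male mean of 201 CPM, and just outside was tetur09g05950, at 197 CPM. On the ratio, tetur30g02200 at 16.04 was just inside and tetur11g02240 at 15.9 just outside. With the other limits kept, 19 IDs lay between 16 and 20 times and 29 between 12 and 16 times. On the spread between male libraries the step was wider, with tetur09g06230 at 2.69 the nearest inside and tetur01g12840 at 3.15 the nearest outside.

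Between the male libraries most of the 73 IDs differed little, although the limit of 3-fold allowed more. The highest male library was less than 1.1 times the lowest in 22 IDs, 1.1 to 1.25 times in 32, 1.25 to 1.5 times in 11, 1.5 to 2 times in 4 and 2 to 3 times in 4, with a median of 1.16. The share below 1.25 times was 74.0% for the 73 IDs and 88.5% for the 800 other tested IDs at 200 CPM or more in males. The median coefficient of variation (SD over mean) between male libraries was 6.46% and 4.60% in the same order. "Steady" thus describes the limit of the rule rather than an unusually small spread. Counting alone would give a median of 1.17%, and in 0 of the 73 IDs was the spread as small as counting gives. The closest agreement was that of tetur02g15125, at 273, 284, 283 and 273 CPM, and of tetur09g00380, at 1987, 1957, 1906 and 1955 CPM. The ID tetur18g01740 came next, at 498, 487, 490.1 and 472 CPM.

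The 8 IDs that differed by 1.5-fold or more did so in few ways. In 6 of them the lowest library was male replicate 4, and in 5 of these the order was replicate 3, then 1, 2 and 4. The ID tetur09g06230 had 1991, 1263, 2272 and 843 CPM in male replicates 1 to 4. For tetur04g01580 the values were 2976, 2006, 3563 and 1346 CPM, and for tetur04g01610 they were 2983, 2047, 3183 and 1508 CPM. In this order of IDs, the highest library was 2.69, 2.65 and 2.11 times the lowest. The ID tetur01g05660 followed the same order, at 1603, 1101, 1760 and 819 CPM, as did tetur15g01480 at 320.1, 237, 342 and 225 CPM. The sixth, tetur30g02200, was lowest in replicate 4 and about equal in replicates 1 and 3. How often other abundant IDs of like spread took the order 3, 1, 2, 4 was not computed.

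The other 2 of the 8, tetur30g01790 and tetur30g01880, moved differently. The first had 246, 312, 189 and 275 CPM in male replicates 1 to 4, and the second 247, 355, 204 and 299 CPM. Both were highest in replicate 2 and lowest in replicate 3. Their order, replicate 2, then 4, 1 and 3, is that of the total reads of the libraries, and the part of depth in it was not tested.

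The same orders were frequent among all 73. The order 3, 1, 2, 4 was found in 16 IDs (21.9%) and in 6.88% of the 800 other abundant IDs. The order 2, 4, 1, 3 was found in 8 IDs (10.96%) and in 5.75% of the others. Male replicate 4 was the lowest library for 34 of the 73 (46.6%) and for 20.1% of the others. With TMM, DESeq2 and upper quartile factors it was lowest for 43, 41 and 35 of the 73. The full orders and the share of the others were not computed under those scalings. All these shares are descriptions, since the level and spread of these IDs in the same libraries had chosen them. Summed over the 8 IDs of larger spread, the male level was 11784, 8402, 12920 and 6238 CPM in replicates 1 to 4. Summed over the other 65 it was 83834, 86538, 82885 and 86485 CPM, with the highest library 1.04 times the lowest. The libraries low in the first sum, replicates 2 and 4, were the higher ones in the second. The second sum is weighted to its most abundant IDs, among them tetur02g04350 (17270, 18997, 16581 and 19768 CPM) and tetur11g02250 (7712, 8211, 7078 and 8741 CPM). By contrast tetur03g09480, also abundant, was lowest in replicate 4, at 8303 CPM. The second sum therefore does not describe how most of the 65 IDs moved.

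**Figure D3:**
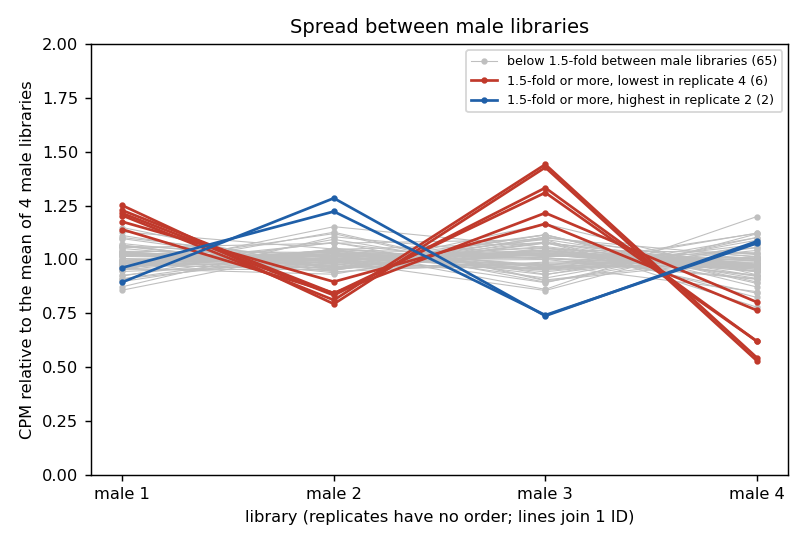
Level of each of the 73 IDs in the 4 male libraries, relative to its male mean. Grey lines are the 65 IDs below 1.5-fold between libraries, red lines the 6 of larger spread that were lowest in replicate 4, and blue lines the 2 that were highest in replicate 2. The red lines come down to about the same level in replicate 2 and part in replicate 4, where the lowest fall closest to 0.5.

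The spread between the female libraries was not used to choose the IDs. Its median coefficient of variation was 12.7%, where counting would give 7.09%. To set levels of expression aside, the 25 IDs at 20 to 60 CPM in females were compared with the 2991 other tested IDs in that range. The median was 10.5% for the 25 IDs (counting alone 4.71%) and 6.31% for the others (counting alone 4.38%). Without female replicate 3 the medians were 5.94% and 5.12%.

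Female replicate 3 was the highest female library for 40 of the 73 IDs (54.8%). This held for 34 of the 51 IDs below 64 times (66.7%) and for 6 of the 22 above (27.3%). Among the 8570 other tested IDs in the female range of the 51, the share was 35.6%. For the 51 IDs the median level in female replicates 1 to 4, relative to the female mean, was 0.942, 0.974, 1.11 and 0.961. For the 22 IDs the corresponding medians were 0.975, 0.953, 0.980 and 1.07. Scaling by TMM factors, DESeq2 size factors or upper quartile factors left 32, 32 and 33 of the 51 highest in replicate 3, at medians of 1.097, 1.096 and 1.11. That library also had the fewest reads of the female libraries (12912850). Replicate 2 had nearly as few (12999718), with a median of 0.974 for the 51 IDs. The part of depth was not tested.

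The sums show the same contrast between the classes. Summed over the 51 IDs, female replicates 1 to 4 had 1959, 2032, 2340.4 and 2048 CPM, so that replicate 3 stood 1.16 times above the mean of the others. The coefficient of variation of this sum was 8.03%, against 0.581% from counting. Summed over the 22 IDs, the libraries had 123.7, 121.7, 121.9 and 123.0 CPM, with a coefficient of variation of 0.759%, below the 2.4002% that counting alone would give. Of that sum 26.5% came from tetur02g04350. Replicate 3 thus stood apart in the sum of the 51 IDs and not in that of the 22, and the difference between the classes was not tested.

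**Figure D4:**
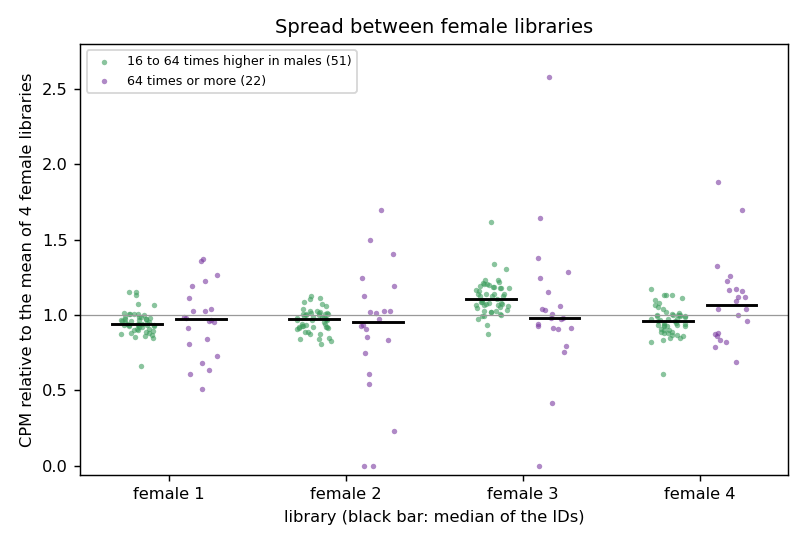
Level of each of the 73 IDs in the 4 female libraries, relative to its female mean. Green points are the 51 IDs at 16 to 64 times, purple points the 22 IDs at 64 times or more, and black bars the medians. The green median is 1.11 in replicate 3 and 0.942 to 0.974 in the others, and the purple points scatter more widely at their lower counts.

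Female replicate 3 also stood above the female mean in IDs outside the 73, and by more where the ratio between the sexes was higher. Among other tested IDs in the female range of the 51, those at 0.5 to 2 times had a median relative level of 1.00 in replicate 3 (4304 IDs). It was 1.03 at 2 to 4 times (976 IDs), 1.06 at 4 to 8 times (419 IDs) and 1.08 at 8 to 16 times (163 IDs), of which 106 were highest in that library. The order of these 4 classes was the same under the 3 other scalings, although the first lay at 0.992 with TMM and 0.991 with DESeq2 size factors. The 51 IDs at 1.11 continue this series, while the 22 at higher ratios do not. The 22 are not matched to it in level, however. Their median female mean of 1.29 CPM lies below the range of the series (5.09 to 321 CPM), so their medians rest on fewer reads.

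Some IDs stood apart in females on their own. Of the IDs with at least 100 female reads, tetur16g03190 had the largest spread, at 5.39, 4.54, 9.06 and 3.40 CPM in female replicates 1 to 4 from 48 to 117 reads a library. The ID tetur12g01980 had 6.99, 9.77, 14.2 and 11.5 CPM, and tetur31g00690 had 1.78, 2.92, 1.47 and 1.63 CPM. Replicate 3 was highest in the first pair and lowest in the last. For 18 of the 73 IDs the spread between female libraries was no larger than counting gives. Of these, 12 were among the 22 at 64 times or more, and 6 were at lower ratios. The median female mean was 1.29 CPM for the 22 and 24.0 CPM for the members at lower ratios. Counting alone gives a larger spread at fewer reads, so the 12 are not read as a trait of the class. The corresponding share of other tested IDs at like female counts was not computed.

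The order of IDs in the table gives a property that the rule did not use. The 73 IDs fell under 29 of the 192 ID prefixes (the part before the letter g) with a tested ID, with at most 6 under a single prefix. The highest number was shared by tetur01 and tetur11, with 6 of 1164 and 6 of 494 tested IDs, against 0.567% over all tested IDs. Among prefixes with 3 or more of the 73, the share was highest for tetur30 (4 of 171, 2.34%), tetur29 (3 of 133, 2.26%) and tetur20 (4 of 218, 1.83%). It was lowest for tetur02 (4 of 1055, 0.379%). The 73 were thus spread over many prefixes. The counts per prefix were small, and whether the shares differ between prefixes was not tested. Only tetur29g00800 and tetur29g00810 stood next to each other among the IDs of the table. The first of these had 841, 762, 855 and 791 CPM in males and 43.8, 40.6, 52.6 and 37.4 CPM in females. The second had 1851, 1926, 1988 and 1864 CPM in males and 85.9, 81.5, 106 and 83.5 CPM in females. Both were highest in replicate 3 in each sex, at ratios of 18.6 and 21.4.

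With up to 3 IDs apart, 6 of the 73 had another member close by. The IDs tetur04g01580 and tetur04g01610, which varied alike between the male libraries, had nearly the same male mean (2473 ± 988 and 2430.4 ± 790 CPM). Of the 2 IDs between them, tetur04g01590 had 0 reads in males, and tetur04g01600 had 2.07 ± 0.58 CPM in males and 2.13 ± 0.32 CPM in females. Between tetur20g00430 and tetur20g00470, tetur20g00440 and tetur20g00450 were both called higher in males, at ratios of 4.18 and 3.65 (adjusted p = 1.93e-09 and 3.57e-11, edgeR). How reads that match several places were counted is not given in the sources used here, and reads of similar copies may be split or lost.

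IDs that do not end in 0 made up 5 of the 73 (6.85%) and 2.27% of all tested IDs. The most abundant of them were tetur06g06933 and tetur38g00723, described above, and tetur05g09318, at 332, 292, 295 and 292 CPM in males and 12.2, 13.7, 18.4 and 11.95 CPM in females. Of the last 58 tested IDs with the prefix tetur09, 56 were called higher in males by edgeR, against 30.5% of all tested IDs. Of the 58, 0 were among the 73. The 73 were only 0.567% of all tested IDs, so nothing is read from that 0.

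The values of IDs next to a member in the table, and not members themselves, were not used by the rule. Of 125 such tested neighbours, 51 (40.8%) were called higher in males and 31 (24.8%) in females by edgeR, against 30.5% and 26.9% of all tested IDs. The remaining 43 were called in neither direction. With upper quartile scaling 44.0% of the neighbours were higher in males, against 34.6% of all. With up to 3 IDs to each side the share was 34.5% of 345. At 4 times or more in males were 24.8% of the neighbours and 17.8% of all tested IDs, and at 16 times or more 4.80% and 3.87%. The median fitted log2 fold change (male minus female) of the neighbours was 0.26, against 0.05 for all. Whether these shares differ was not tested.

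**Figure D5:**
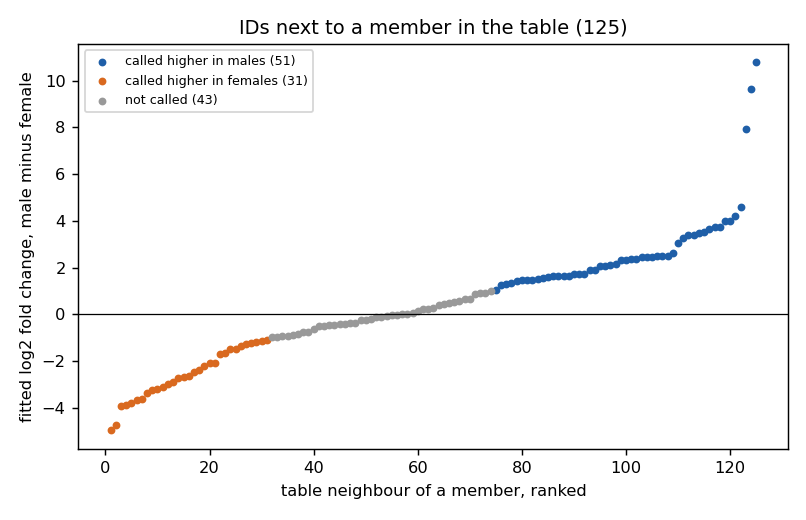
Fitted log2 fold change (male minus female) of the 125 tested IDs next to a member in the table, in rising order. Blue points are the 51 called higher in males, orange points the 31 called higher in females and grey points the 43 called in neither direction. The 3 highest points stand apart from the rest.

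The 3 neighbours with the highest ratios, named after their values were seen, each sat beside an ID of very high ratio. The ID tetur09g05950, next to tetur09g05960, had 197 ± 11 CPM in males and 6 reads in the 4 female libraries (adjusted p = 4.85e-17, edgeR). Its male level missed the limit of 200 CPM. The ID tetur02g15135, next to tetur02g15125, had 61.6 ± 3.9 CPM in males and 4 female reads (adjusted p = 2.65e-16, edgeR). The ID tetur32g01870, next to tetur32g01860, had 23.4 ± 1.6 CPM in males and 5 female reads (adjusted p = 6.74e-14, edgeR). In each pair the levels in males differed while both IDs had few reads in females. The neighbours on the other side of the same 3 members, tetur09g05970, tetur02g15091 and tetur32g01850, were called higher in females, at male to female ratios of 0.349, 0.0749 and 0.348. Over all neighbours, the share called higher in males was 38.5% of 39 beside members at 64 times or more and 41.9% of 86 beside the others.

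Other neighbours were abundant and less extreme. The ID tetur08g07240, beside tetur08g07230, stood at 4591 ± 794 CPM in males and 348 ± 26 CPM in females, a log2 fold change of 3.73 (adjusted p = 7.08e-14, edgeR). The ID tetur11g02240, beside the third most abundant of the 73, had 492 ± 33 CPM in males and 30.9 ± 2.7 CPM in females and missed the limit on the ratio. Its female level was above that of tetur11g02250, whose male level was far higher.

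The same limits on level and ratio applied to the other sex gave 125 IDs, all of which also met the limit on spread between their own libraries. These held 18.1% ± 0.5 of the female reads, against 9.48% ± 0.14 of the male reads for the 73 (SD, n = 4 each). Their median level was close to that of the 73, at 465 CPM in females against 487 CPM in males. The median ratio was 148 for the 125 IDs of females and 28.8 for the 73 of males, and 67.2% and 30.1% of the IDs were at 64 times or more. Both sets were chosen by their ratio, so these values describe the sets and were not tested.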

How the data were processed

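The deposited table holds raw read counts for each gene ID in 8 libraries; 0 rows named no gene and 0 columns were left unused. The submitters' processing notes name STAR 2.4.1d and HTSeq 0.6.1. Their settings, the genome build and the annotation were not given in the sources used here. Per the labels' protocols, libraries were strand-specific and selected with oligo dT. CPM is the count divided by the sum of its column. The members, the classes and the named IDs were chosen with earlier results of these data known. Named were the most abundant IDs, the extremes of ratio and spread, those nearest the limits, adjacent IDs and those not ending in 0; others were named after their values were seen. Sexes were compared over all 12885 IDs kept by filterByExpr with the quasi-likelihood test of edgeR 4.0.16 (R 4.3.3), TMM scaling, sex as the only term and Benjamini-Hochberg adjustment. This step was tried on simulated data with far fewer changed IDs than were called here. In the data 30.5% of tested IDs were called higher in males and 26.9% in females. The simulation therefore does not show how the scaling holds in such a case. Errors are SDs over 4 libraries, and counting spreads assume Poisson counts. Other settings tried were other scalings, no filter, DESeq2 1.42.0, a replicate block, other limits and leaving out each library.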

Additional observations from a re-analysis of the deposited data

Results flagged for a closer look

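In 27 named IDs, examined in each sex, and in the sums of the classes, 60 groups of 4 libraries were looked at for a library that stands far from the others. Chance marks about 1 in 20 such groups, and 3 were found. In tetur05g09318 male replicate 1, at 332 CPM, stood above the other male libraries at 292 to 295 CPM (gap over range 0.916). In tetur12g01980 male replicate 1, at 339 CPM, stood above the others at 293 to 295 CPM (gap over range 0.963). In tetur31g00690 male replicate 4, at 162 CPM, stood below the others at 219.96 to 228 CPM (gap over range 0.881). Over all 73 IDs and both sexes, 6 groups of male libraries and 1 of female libraries among 146 passed the same limit.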

How the results depend on the processing

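All 73 IDs were called higher in males with 2 other scalings, no filter, DESeq2, a replicate block and each library left out. Over these settings 3822 to 4573 tested IDs were called higher in males. The replicate numbers did not pair the libraries: deviations of same-numbered libraries correlated at -0.093, 0.0017, 0.019 and 0.035, and with the replicate block 3932 IDs were called against 3935 without. Upper quartile scaling moved the median log2 ratio of all tested IDs by 0.22, and males then made up 59.7% of the calls against 53.2%. The number of IDs that meet the rule depended on its limits. It was 43 at a male mean of 400 CPM or more, 142 at 8 times and 33 at 32 times. It was 105 at 100 CPM, 69 and 65 with limits of 2 and 1.5 between male libraries, 77 without that limit and 75 with medians. Scaling by TMM, DESeq2 and upper quartile factors gave 74, 66 and 97, the last added after the data were seen, and leaving out a library gave 70 to 79. With up to 3 IDs apart, 6 members rather than 2 had another nearby. The share of male reads held by the 73 IDs was 9.52% with TMM scaling and 9.44% to 9.55% with each male library left out; it was not computed for the other limits. The median spread between female libraries was 12.2% to 12.8% under other scalings and 9.64% without female replicate 3, and up to 12.9% without another. At this depth, 3 reads are 0.140 to 0.248 CPM, which limits ratios above about 1000.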

Other observations

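Of the 4 IDs that met the limits on level and ratio but differed by 3-fold or more between male libraries, 3 had the order of replicates 3, 1, 2 and 4 seen in several of the 73. They were tetur01g12820, tetur01g12840 and tetur03g08300, whose highest male library was 3.23, 3.15 and 5.58 times the lowest. The ID tetur01g12840, for example, stood at 2064, 1317, 2624 and 833 CPM in male replicates 1 to 4 and at 3.23 to 4.03 CPM in females. The fourth, tetur03g08450, behaved differently in both sexes. It had 115, 2551, 2174 and 136 CPM in male replicates 1 to 4, so that the highest male library was 22.3 times the lowest. In females it had 266, 13.2, 16.7 and 10.1 CPM, with female replicate 1 above male replicates 1 and 4. These IDs were singled out after their values were seen.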
